A study of Mus musculus with 12 samples.

Results

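Skeletal muscle and heart were compared within *Tk2* knockout mice, that is, the tissues were set against each other when both lacked thymidine kinase 2. The comparison used 6 of the 12 arrays of the study: the 3 arrays of hind limb skeletal muscle and the 3 arrays of heart from Tk2-/- mice of the C57BL/6 strain at 11 days of age. Total RNA of whole tissue was hybridised, with 1 array for each RNA sample. The other 6 arrays hold the same tissues of Tk2+/+ mice of that age and serve here to show where the tissue difference of the knockout departed from that of the wild-type. The knockout acts in every cell of the animal and had been made earlier in the same laboratory. According to the methods, 3 different mice of each genotype were used, so p-values measure the spread between 3 arrays in each tissue. Of 35556 probe sets, 21218 carried a single gene symbol, and the brightest of these for each symbol gave 18820 genes.

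Thymidine kinase 2 phosphorylates thymidine and deoxycytidine inside mitochondria and so feeds the synthesis of mitochondrial DNA. Skeletal muscle and heart are both striated muscles that rely on mitochondria, and they build the sarcomere, the calcium release unit and the fuel supply from related but separate genes. Skeletal muscle fibres are syncytia made by fusion of myoblasts and driven by nerve, whereas cardiomyocytes are joined end to end at intercalated discs and beat from a pacemaker.

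All values are normalized signals, the brightness of a probe set on a linear scale after quantile normalization over the 6 arrays. Differences are skeletal muscle minus heart on the scale of log2(signal + 16), which understates the differences of dim genes, and higher or lower refers to genes past an adjusted p of 0.05 (limma, Benjamini-Hochberg adjustment over all genes). In whole tissue, fewer cells of a type and less RNA per cell cannot be told apart. The 3 arrays of a tissue correlated at 0.9886 to 0.9949 with each other and at 0.9054 to 0.9079 with the arrays of the other tissue, and the first principal component, which held 88.9% of the variance, separated the tissues. As deposited, the arrays differed in brightness, with a mean signal of 224.9 to 245.9 in the 3 skeletal muscle arrays and of 146.7 to 168.4 in the 3 heart arrays. Without normalization the median difference of all genes was 0.362, against -0.0057 after it, so every difference is relative to the bulk of the genes. *Xist* and the Y-linked genes *Kdm5d*, *Eif2s3y* and *Uty* marked skeletal muscle replicate 2 as male and the other 5 arrays as female. By these markers the tissues did not come from the same 3 knockout mice, although the methods can be read that way. *Tk2* itself was dim in both tissues, with signals of 48.9, 37.2 and 41.9 on the skeletal muscle arrays and of 35.5, 54.99 and 42.2 on the heart arrays. Its difference was -0.03 ± 0.13 (SE, adjusted p = 0.888). Which stretch of the transcript its probes read was not stated, so the signal may come from outside the deleted part and does not check the genotype.

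Heart replicate 2 stood apart on the second principal component (4.38% of the variance), at 19.75 against -12.68 to 5.28 for the other 5 arrays, and it was low for markers of the atria. *Myl7*, the atrial regulatory myosin light chain, gave 2508, 168 and 2385 in heart replicates 1 to 3. *Myl4*, the atrial essential light chain, gave 5478, 837 and 5011. *Bmp10*, a growth factor of atrial cardiomyocytes, gave 5205, 12.5 and 943. Replicate 2 was the lowest heart array for each of them and for sarcolipin (*Sln*), at 309, 17.3 and 341. Ventricular genes did not share this pattern, with 4488, 5166 and 4541 for *Myl2* and 209, 255 and 264 for *Irx4*. *Bmp10* differed by -4.04 with an adjusted p of 0.0625 over all arrays and by -6.14 with an adjusted p of 5.19e-05 without heart replicate 2. The same was seen for *Fgf12*, at -2.73 (adjusted p = 0.0513) and -4.14 (adjusted p = 1.07e-06). *Myl7* was lower in skeletal muscle either way, by 5.64 on the log2 scale over all arrays (-6.91 without heart replicate 2). *Myl4* differed by -2.28 (adjusted p = 0.0154), but its adjusted p rose to 0.0515 without skeletal muscle replicate 3, to 0.0617 without heart replicate 1 and to 0.0594 without heart replicate 3. These chamber genes were picked after their values had been seen, and the share of atrial tissue in each heart sample was not tested.

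Of 18820 genes, skeletal muscle had higher signals for 3412 (18.1%) and lower signals for 3318 (17.6%), so 35.8% differed. Without normalization, with the heart arrays dimmer, the counts were 11612 and 875. The signals of the tissues did not overlap for 9084 genes (48.3%). Most differences were small: the median size over all genes was 0.18 on the log2 scale, and 238 genes were at least 4-fold higher (1.26%) and 201 at least 4-fold lower (1.07%) in skeletal muscle. At least 16-fold differences were found for 58 and 48 genes. The plot of mean signals shows these genes as a fringe far from the diagonal, with fast-fibre genes at the top and cardiac genes on the right.

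**Figure D1:**
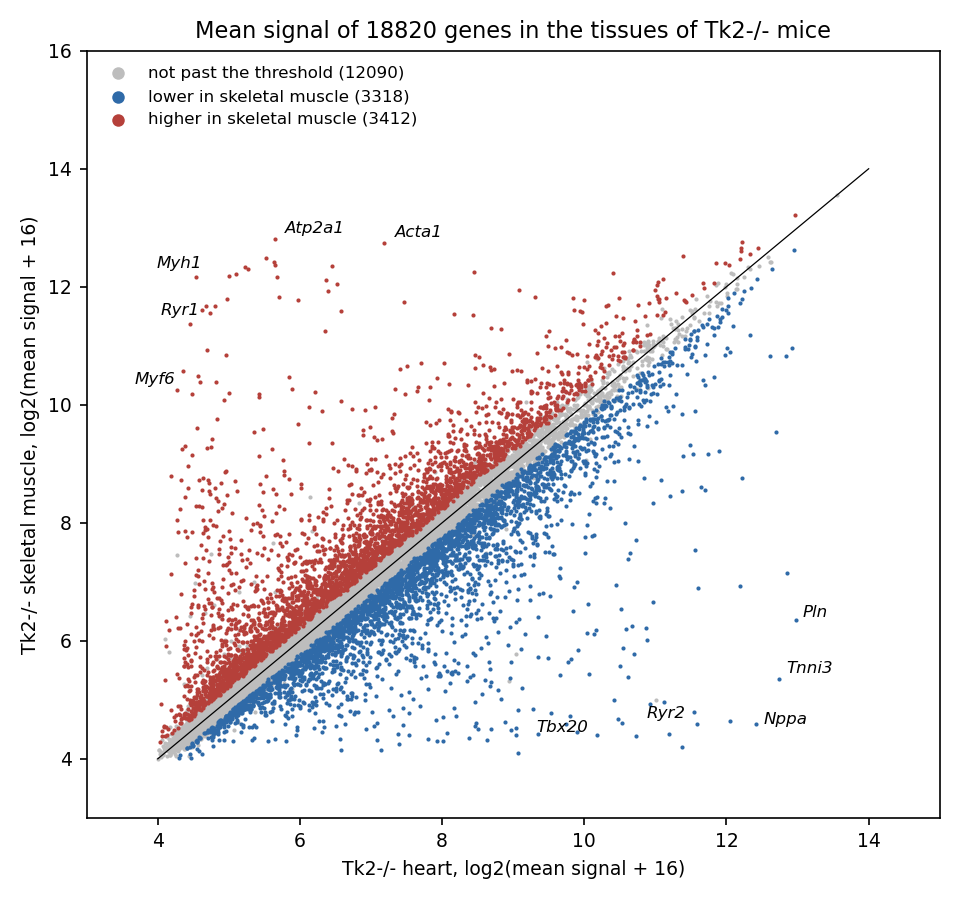
Mean signal of 18820 genes in 3 Tk2-/- skeletal muscle arrays (vertical axis) against 3 Tk2-/- heart arrays (horizontal axis), both as log2(mean signal + 16), 1 point per gene and the line of equal signal in black. Red marks the 3412 genes higher in skeletal muscle and blue the 3318 lower ones, and named genes lie among the farthest from the line.

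Genes of the skeletal sarcomere were the group with the widest gap. Of 24 measured genes on this list, 23 were higher in skeletal muscle, with a median difference of 6.02 against -0.0057 over all genes. *Lmod3*, a leiomodin of thin filaments, did not pass (0.27). The largest positive difference of all genes belonged to *Myh1*, the fast IIx myosin heavy chain, with signals of 4568, 4541 and 4662 in skeletal muscle and of 10.1, 4.22 and 7.39 in heart (7.64 ± 0.10, SE). The heart arrays were therefore close to no signal for this gene. *Tnnc2*, the calcium sensor of fast fibres, gave 4507, 4371 and 4984 against 25.5, 11.9 and 11.2 (7.196 ± 0.15). *Actn3*, the α-actinin of fast fibre Z-discs, gave 5344, 4694 and 5357 against 24.4, 17.3 and 22.6 (7.11 ± 0.10). *Mylpf*, the fast regulatory light chain, gave 3271, 3208 and 3271 against 15.99, 8.98 and 11.1 (6.87 ± 0.10). In each of these genes the tissues lay far further apart than the replicates. Slow-fibre troponins showed the same direction with a smaller gap, at 3.20 for *Tnnt1* and 3.10 for *Tnni1*, and the heart arrays read 46.7 to 61.1 for *Tnnt1*. *Smpx*, a small protein of stretched muscle, differed by 0.42 only.

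Developmental myosins were still strong in skeletal muscle at this age. *Myh3*, the embryonic heavy chain, gave 4310, 3235 and 2987 on the muscle arrays and 37.2, 48.5 and 55.4 on the heart arrays (5.80 ± 0.15). *Myh8*, the perinatal heavy chain, gave 632, 790 and 871 against 8.93, 6.35 and 7.34 (5.04 ± 0.12). *Myl6b* was higher by 2.45, while *Myl4*, shared by fetal skeletal muscle and atria, was lower by 2.28 and rests on the heart arrays described above. Sarcomeric actins and myosin heavy chains have nearly identical copies, and probe sequences were not used here, so that signal shared between copies was not tested and their values are uncertain.

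The cardiac sarcomere list mirrored this. Of 23 measured genes, 19 were lower and 1 higher in the skeletal muscle arrays (median -3.16). *Tnni3*, cardiac troponin I, gave 19.99, 20.8 and 34.2 on the muscle arrays and 6820, 6635 and 7085 on the heart arrays (-7.40 ± 0.13). *Mybpc3*, the cardiac myosin-binding protein C, gave 10.5, 8.19 and 8.5 against 4211, 4646 and 3760 (-7.39 ± 0.09). *Nebl*, a nebulin relative of cardiac Z-discs, gave 7.84, 9.45 and 7.58 against 1472, 1471 and 1445 (-5.93 ± 0.07), and *Mylk3*, the cardiac myosin light chain kinase, differed by -5.81. In all 4 genes the skeletal muscle arrays were at or near the floor. Other genes on the list kept a clear signal in skeletal muscle: *Actc1*, cardiac α-actin, gave 1912, 1940 and 2090 against 7651, 8310 and 7164 (-1.95 ± 0.08), and *Tnnc1*, shared by slow fibres and heart, gave 658, 525 and 499 against 3301, 3707 and 3243 (-2.58 ± 0.11). The 3 genes that did not pass were titin (*Ttn*, 0.12) and α-actinin 2 (*Actn2*, 0.17), which both muscles make, and the slow or β-cardiac myosin heavy chain (*Myh7*, 1.017 ± 0.52). *Myh7* was the one with unequal heart arrays, at 906, 300 and 1884 against 2152, 1424 and 1454 in skeletal muscle. In wild-type heart it read 64.3, 36.6 and 56.3, normalized over 12 arrays. *Alpk3*, an α-kinase of striated muscle, was the exception among the called genes, higher in skeletal muscle by 1.46.

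Paired forms of the same protein show the exchange gene by gene. Of 22 pairs with a skeletal form and a partner form, 19 had both measured, and in 16 the skeletal form was higher and the partner lower in skeletal muscle. The skeletal form was higher in 18 and the partner lower in 17 of the 19. The exceptions were *Actn2* and *Jph2*, which did not pass, and *Cox7a1*, the muscle form of a cytochrome c oxidase subunit, which was lower in skeletal muscle by 0.45. Without normalization *Cox7a1* and its partner *Cox7a2* turned to 0.032 and 0.0005 and *Jph2* from -0.25 to 0.43. *Myh6* and *Cacnb2* are among the genes not analysed here.

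**Figure D2:**
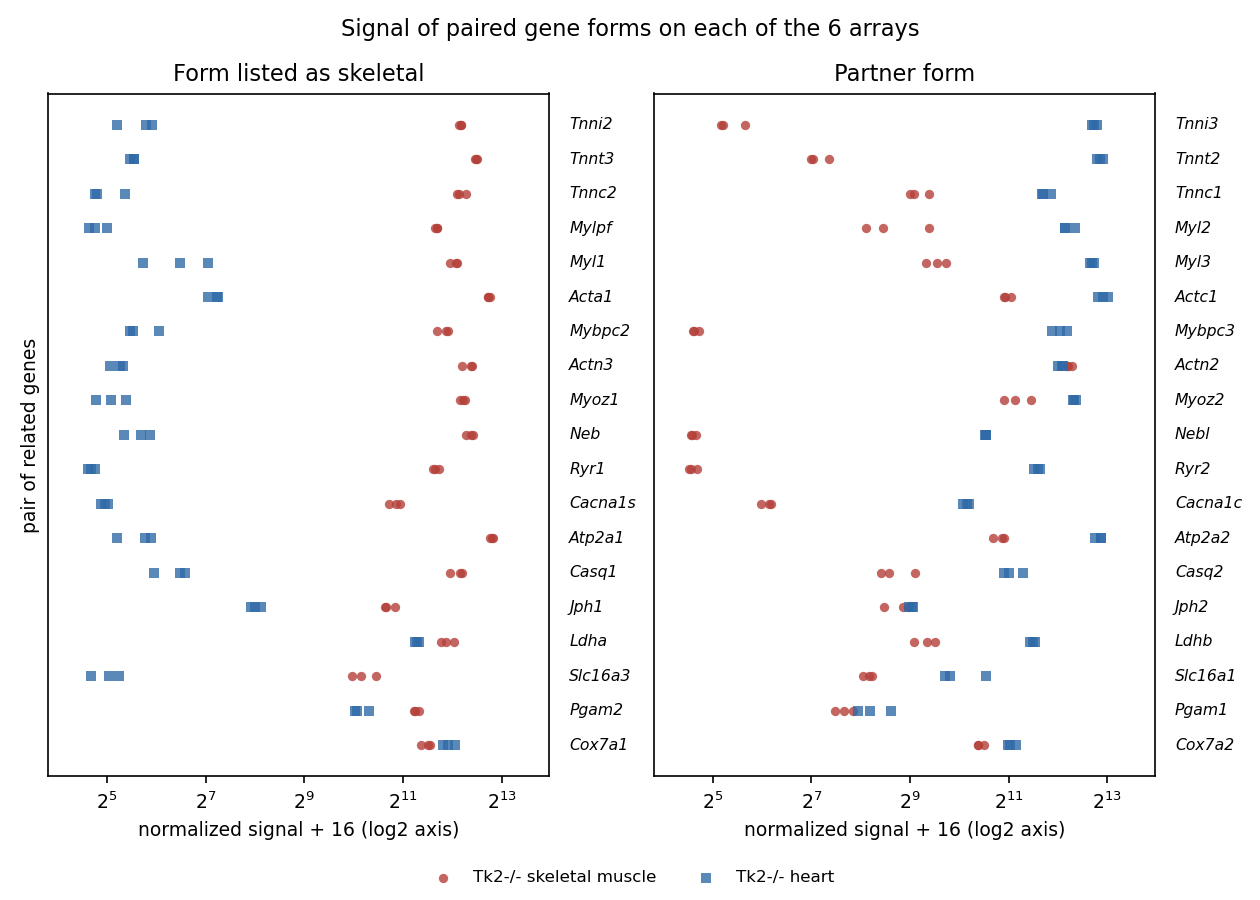
Normalized signal + 16 on a log2 axis for 19 pairs of related genes, the skeletal form on the left and its partner on the right, with 1 point for each of the 3 Tk2-/- skeletal muscle arrays (circles) and 3 heart arrays (squares). *Tnni2* and *Tnni3*, *Mybpc2* and *Mybpc3*, and *Ryr1* and *Ryr2* lie at opposite ends of the axis in the tissues, *Tnnc1*, *Myl3* and *Atp2a2* keep a clear signal in skeletal muscle, and *Actn2*, *Jph2* and *Pgam1* lie close together.

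Calcium handling followed the same division. Of 20 measured genes of the skeletal triad and its calcium store, 19 were higher in skeletal muscle (median 4.08). *Atp2a1*, the calcium pump of fast sarcoplasmic reticulum, gave 7164, 6976 and 7259 against 43.2, 20.7 and 38.3 (7.19 ± 0.16). *Pvalb*, the calcium buffer parvalbumin, gave 5478, 4266 and 5308 against 29.1, 18.6 and 20.1 (7.03 ± 0.13). *Ryr1*, the skeletal calcium release channel, gave 3212, 3132 and 3393 against 10.9, 9.52 and 8.67 (6.99 ± 0.08), and *Cacna1s*, the voltage sensor that opens it, differed by 5.89. The heart arrays barely registered these genes. The cardiac counterparts were 14 genes, of which 10 were lower and 1 higher in skeletal muscle (median -1.63). *Ryr2* gave 7.03, 7.55 and 9.53 on the muscle arrays and 3170, 3067 and 2915 on the heart arrays (-6.996 ± 0.08). *Pln*, phospholamban, which restrains the cardiac pump, gave 56.7, 57.2 and 83.9 against 8203, 8203 and 7672 (-6.63 ± 0.12). The pump itself, *Atp2a2*, was shared, at 1854, 1634 and 1913 against 7504, 7532 and 6866 (-2.01 ± 0.09). *Hrc*, a calcium-binding protein of the reticulum lumen, was higher in skeletal muscle by 0.44. *Sln*, the pump inhibitor of atria and of immature skeletal muscle, gave 685, 334 and 324 against 309, 17.3 and 341, and its difference of 1.48 (adjusted p = 0.184) shrank to 0.36 without heart replicate 2.

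The starts of *Mylpf* and *Atp2a1* are shown because they carry an E-box, the CAGCTG core bound by myogenic factors, at almost the same distance from the start. The sequences are the 250 bases before the annotated start in RefSeq (GRCm38.p6), read 5′ to 3′ on the strand of the gene, with motif matches in capitals.
Mylpf, chr7:127211358-127211607, plus strand: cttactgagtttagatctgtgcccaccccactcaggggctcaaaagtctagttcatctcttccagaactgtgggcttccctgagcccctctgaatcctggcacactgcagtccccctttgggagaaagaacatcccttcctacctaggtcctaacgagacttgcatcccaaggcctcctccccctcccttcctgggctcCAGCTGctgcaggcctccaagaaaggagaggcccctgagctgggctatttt
Atp2a1, chr7:126463074-126463323, minus strand: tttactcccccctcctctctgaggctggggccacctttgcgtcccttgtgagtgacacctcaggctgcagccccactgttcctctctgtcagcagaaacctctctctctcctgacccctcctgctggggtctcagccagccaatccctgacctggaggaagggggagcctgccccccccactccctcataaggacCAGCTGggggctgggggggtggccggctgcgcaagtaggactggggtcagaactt
The match lies 51 to 46 bases before the start in *Mylpf* and 55 to 50 in *Atp2a1*. Both strands were searched. CAGCTG occurred in this window in 12.1% of 14749 genes tested with a promoter entry, in 23.9% of the 176 genes at least 4-fold higher in skeletal muscle and in 18.7% of the 150 genes at least 4-fold lower. The MEF2 motif occurred in 2.53%, 6.82% and 3.33% of the same groups, and the SRF CArG box in 1.27%, 2.84% and 3.33%. These shares describe letters in a window and say nothing of binding.

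Channels that shape the cardiac action potential were lower in skeletal muscle in 18 of 20 measured genes, with a median of -2.44. *Kcnip2*, a subunit of the transient outward current, gave 7, 9.02 and 7.93 on the muscle arrays and 829, 812 and 889 on the heart arrays (-5.16 ± 0.08). *Kcnj5* (-4.92) and *Kcnj3* (-4.40), the channel opened by vagal acetylcholine, and *Kcnh2* (-4.24), of the rapid repolarising current, had the next largest gaps. The heart arrays were unequal for *Kcnj3*, at 717, 424 and 672, with heart replicate 2 lowest. The muscarinic receptor that acts on this channel, *Chrm2*, gave 16.6, 15.3 and 13.1 against 2284, 2170 and 2154 (-6.16 ± 0.08). *Gja1*, the main connexin of working myocardium, gave 329, 330 and 340 against 2247, 2784 and 2021 (-2.75 ± 0.11). *Hcn4*, the pacemaker channel, was dim in both, at 27.4, 26.6 and 26.1 against 49.3, 49.3 and 72.0 (-0.76 ± 0.12). *Kcnj2*, the inward rectifier that both muscles use to hold their resting potential, went the other way, with 569, 690 and 684 against 210, 270 and 171 (1.53 ± 0.15).

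Intercalated disc genes were lower in 11 of 15 and higher in 2 (median -2.70). *Dsp*, desmoplakin of desmosomes, gave 8.90, 17.4 and 9.19 on the muscle arrays and 3100, 2810 and 2974 on the heart arrays (-6.75 ± 0.12). *Lrrc10*, a cardiac leucine-rich repeat protein, gave 4.65, 6.66 and 5 against 2484, 2120 and 2344 (-6.76 ± 0.09), and the desmosomal genes *Pkp2* (-5.43) and *Dsg2* (-4.97) and N-cadherin (*Cdh2*, -4.92) followed. Every one of these was near the floor in skeletal muscle or more than 16-fold lower. *Perp*, a desmosome protein listed here as a skin marker, fitted the same group by its values, with 128, 68.9 and 59.2 against 2020, 1864 and 2064 (-4.36 ± 0.21). Desmin (*Des*, 0.40) and *Xirp2* (2.003) were the higher ones, and both also serve the attachment of skeletal myofibrils. *Xirp2* gave 1723, 1420 and 1587 against 334, 529 and 310.

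At the neuromuscular junction, 10 of 14 genes were higher in skeletal muscle and 2 lower, with a median of 0.93. The acetylcholine receptor α subunit *Chrna1* gave 429, 408 and 442 against 1.94, 1.16 and 3.25 (4.61 ± 0.08). The kinase that organises the endplate, *Musk*, gave 439, 326 and 319 against 10.2, 9.32 and 6.43 (3.92 ± 0.13). The adult ε subunit *Chrne* gave 246, 203 and 196 against 6.91, 7.96 and 4.32 (3.36 ± 0.10), while the fetal γ subunit *Chrng* was as dim in skeletal muscle (22.1, 27.9 and 32.6) as in heart (21.5, 18.5 and 23.1) and did not pass (0.23, adjusted p = 0.119). *Prkar1a* (-1.09), a protein kinase A subunit of wide expression, and *Etv5* (-0.85) were lower in skeletal muscle.

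Transcription factors also separated the tissues. Of 22 measured myogenic genes, 18 were higher in skeletal muscle and 1 lower (median 1.77). *Myf6*, the myogenic factor of differentiated fibres, gave 1602, 896 and 1119 against 5.49, 1.08 and 3.5 (5.95 ± 0.19). *Tbx15*, a T-box factor of limb and trunk muscle, gave 1130, 1463 and 1385 against 6.17, 7.39 and 10.6 (5.80 ± 0.11). *Myod1*, a determination factor of myoblasts, gave 201, 71.4 and 96.0 against 6.59, 8.13 and 7.21 (2.46 ± 0.27). *Mymk*, which fuses myoblasts, gave 76.6, 110 and 156 against 22.2, 23.0 and 16.7 (1.79 ± 0.19), and *Pax7*, of satellite cells, gave 52.6, 40.5 and 49.1 against 13.5, 16.6 and 14.8 (1.03 ± 0.09). The laminin receptor subunit *Itga7* was the lower one (-0.40), and it turned to 0.29 without normalization.

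Of 24 cardiac factors, 18 were lower in skeletal muscle and 2 higher, with a median of -2.19. *Tbx20* gave 3.12, 5.48 and 7.05 on the muscle arrays and 1095, 1216 and 1106 on the heart arrays (-5.77 ± 0.09). *Tbx5*, a regulator of atria and conduction tissue, gave 7, 4.36 and 6.06 against 1070, 679 and 1070 (-5.43 ± 0.16), with heart replicate 2 lowest. *Gata4* gave 5.95, 8.25 and 6.79 against 489, 523 and 510 (-4.51 ± 0.08), and *Nkx2-5* gave 0.68, 3.08 and 8 against 338, 407 and 398 (-4.33 ± 0.13). All skeletal muscle arrays were at the floor for these 4 genes. *Mef2c*, which both muscles use, was higher in skeletal muscle, with 1233, 1177 and 1489 against 434, 492 and 424 (1.49 ± 0.11). The nuclear receptor *Nr2f2* was higher by 0.29. *Isl1*, *Tbx3* and *Hand1* did not pass, with differences between -0.20 and 0.10.

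Position along the body was also readable. Genes of hind limb and posterior identity were higher in skeletal muscle in 19 of 25 and lower in none, with a median of 0.93. *Hoxc10* gave 280, 252 and 327 against 3.34, 6.91 and 1.32 (3.93 ± 0.12). *Hoxa10* gave 128, 121 and 124 against 1.24, 0.50 and 4.95 (2.95 ± 0.10), and the hind limb factor *Tbx4* gave 118, 92.9 and 84.9 against 18.4, 19.8 and 37.5 (1.495 ± 0.17). *Pitx1*, which specifies the hind limb, was dim and differed by 0.40. The most distal genes, among them *Hoxa13* and *Hoxc13*, did not pass.

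Hormones and other secreted products of the heart gave the largest negative difference of all. *Nppa*, the atrial natriuretic peptide, gave 9.39, 4.18 and 10.7 on the muscle arrays and 6635, 3760 and 6014 on the heart arrays (-7.80 ± 0.20), with heart replicate 2 lowest here too. *Nppb*, the brain natriuretic peptide, gave 3.05, 1.68 and 2.59 against 2829, 2602 and 2489 (-7.17 ± 0.08), and *Corin*, the protease that activates these peptides, gave 14.01, 16.6 and 12.3 against 2073, 1925 and 1757 (-6.00 ± 0.09). Of 16 genes on the list, 9 were lower and 1 higher in skeletal muscle. The higher one was angiotensinogen (*Agt*), with 266, 403 and 316 against 74.0, 62.1 and 70.4 (2.004 ± 0.14). The receptors *Npr1* and *Npr2* did not pass, at 0.07 and -0.01.

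The starts of *Nppb* and *Ankrd1*, a stress-responsive ankyrin repeat gene of cardiomyocytes (-5.34 ± 0.26), are shown because both hold a GATA match (AGATAA) and a TEAD MCAT match (CATTCC). Matches are in capitals, on either strand, and source, build and window are as above.
Nppb, chr4:147985650-147985899, plus strand: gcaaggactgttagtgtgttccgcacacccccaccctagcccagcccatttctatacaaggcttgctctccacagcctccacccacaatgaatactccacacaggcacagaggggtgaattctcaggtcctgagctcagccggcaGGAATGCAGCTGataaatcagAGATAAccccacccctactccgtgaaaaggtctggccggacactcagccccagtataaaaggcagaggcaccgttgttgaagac
Ankrd1, chr19:36119845-36120094, minus strand: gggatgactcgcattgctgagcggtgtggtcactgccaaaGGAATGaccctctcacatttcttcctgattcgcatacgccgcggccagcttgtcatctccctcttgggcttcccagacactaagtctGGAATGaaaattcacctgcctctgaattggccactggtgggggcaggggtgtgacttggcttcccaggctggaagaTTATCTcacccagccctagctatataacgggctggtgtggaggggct
In *Nppb* the MCAT match lies 105 to 100 bases before the start, followed without a gap by a CAGCTG match, and the GATA match lies 84 to 79 bases before it. In *Ankrd1* the GATA match lies 47 to 42 bases before the start, and MCAT matches end 205 and 118 bases before it. AGATAA was present in 8.66% of all windows, in 24 of the 150 windows of genes at least 4-fold lower in skeletal muscle and in 6.82% of those at least 4-fold higher. CATTCC was present in 11.4% of all windows, in 21 of the same 150 and in 14.8% of those at least 4-fold higher, and AAGGTCA, the estrogen-related receptor motif, in 3.4%, 4.0% and 3.98%.

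MicroRNA genes were read by probe sets against the precursor or its host transcript, not against the mature RNA. Of 306 measured, 34 passed as higher and 29 as lower in skeletal muscle (20.6% in all, against 35.8% of all genes). *Mir675* stood apart, with 3456, 3285 and 3541 on the muscle arrays and 176, 139 and 168 on the heart arrays (4.29 ± 0.10). It lies within *H19*, the maternally expressed RNA next to *Igf2*, and *Igf2* was higher by 1.97. *Mir133b*, of the skeletal muscle myomiR family, gave 86.4, 44.8 and 54.7 against 13.5, 17.8 and 18.8 (1.22 ± 0.17). *Mir208a*, from an intron of *Myh6*, gave 2.87, 1.33 and 6.95 against 19.5, 38.5 and 35.1 (-1.24 ± 0.17), and *Mir490* gave 4.55, 3.44 and 3.48 against 41.0, 34.1 and 44.9 (-1.49 ± 0.09). These precursors were named after their values were seen. Their mature sequences in RefSeq (GRCm38.p6) are shown with the seed, bases 2 to 8, in capitals.
mmu-miR-675-5p: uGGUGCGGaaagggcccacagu
mmu-miR-675-3p: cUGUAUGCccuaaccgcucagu
mmu-miR-133b-3p: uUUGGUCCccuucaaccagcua
mmu-miR-208a-3p: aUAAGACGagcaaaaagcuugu
mmu-miR-490-3p: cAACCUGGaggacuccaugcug
No seed is shared among these 5. *Dlk1* (3.95) and *Meg3* (3.20), of imprinted clusters and also chosen after their values were seen, were higher in skeletal muscle. The microRNA gene *Mir323* was lower (-0.58), whereas *Mir341* (1.30), *Mir485* (1.12) and *Mir134* (0.83) were higher. Imprinted clusters were not surveyed as a whole.

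After normalization, fuel genes divided along glycolysis and fat. Of 32 genes of glycolysis, glycogen and phosphate transfer, 26 were higher in skeletal muscle and 4 lower (median 0.98). *Ampd1*, the muscle AMP deaminase, gave 1988, 789 and 1505 against 7.52, 6.08 and 9.27 (5.84 ± 0.27). *Slc16a3*, the transporter that exports lactate, gave 990, 1114 and 1392 against 16.8, 22.1 and 9.60 (5.20 ± 0.16), and glycogen synthase (*Gys1*) gave 2305, 2620 and 2490 against 368, 590 and 358 (2.49 ± 0.17). The 4 lower genes were forms known from heart or of wide expression: *Hk1* with 97.6, 102 and 107 against 528, 581 and 459 (-2.19 ± 0.10), *Ldhb* (-2.18), the lactate importer *Slc16a1* (-1.87) and *Pgam1* (-0.59). *Pgam1* alone among them turned without normalization, to 0.043.

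Fatty acid oxidation genes were lower in skeletal muscle in 20 of 30 and higher in 2, with a median of -0.53 that became 0.0019 without normalization, with 10 higher and 6 lower. The outer membrane carnitine palmitoyltransferase *Cpt1a* gave 260, 205 and 246 against 937, 919 and 810 (-1.84 ± 0.10). *Oxct1*, which burns ketone bodies, gave 261, 220 and 210 against 548, 1050 and 463 (-1.43 ± 0.25), and lipoprotein lipase (*Lpl*) gave 1968, 1769 and 1738 against 4173, 3744 and 4161 (-1.13 ± 0.08). The higher ones were *Bdh1* (0.98) and *Pdk4* (0.34).

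Nuclear genes of the respiratory chain moved as a block of small differences. Of 61 measured, 40 were lower in skeletal muscle and none higher, with a median of -0.37 and a range from -0.92 (*Ndufa5*) to 0.04 (*Ndufa6*), and without normalization 19 were higher, none was lower and the median was 0.209. *Ndufa5* gave 360, 433 and 363 against 736, 834 and 657, and *Cox6a1*, the non-muscle form of an oxidase subunit, gave 415, 478 and 491 against 866, 862 and 909 (-0.91 ± 0.08). Of 21 genes of the TCA cycle, 8 were lower and 1 higher (median -0.19), against 1 and 12 without normalization. *Idh2* gave 2073, 1909 and 1703 against 4371, 3914 and 4418 (-1.16 ± 0.09), and the anaplerotic enzyme *Pcx* was higher by 1.69. The direction of the fatty acid oxidation, respiratory chain and TCA lists therefore depends on the scaling, as the plot of medians under 5 scalings shows. That of the glycolysis list does not.

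**Figure D3:**
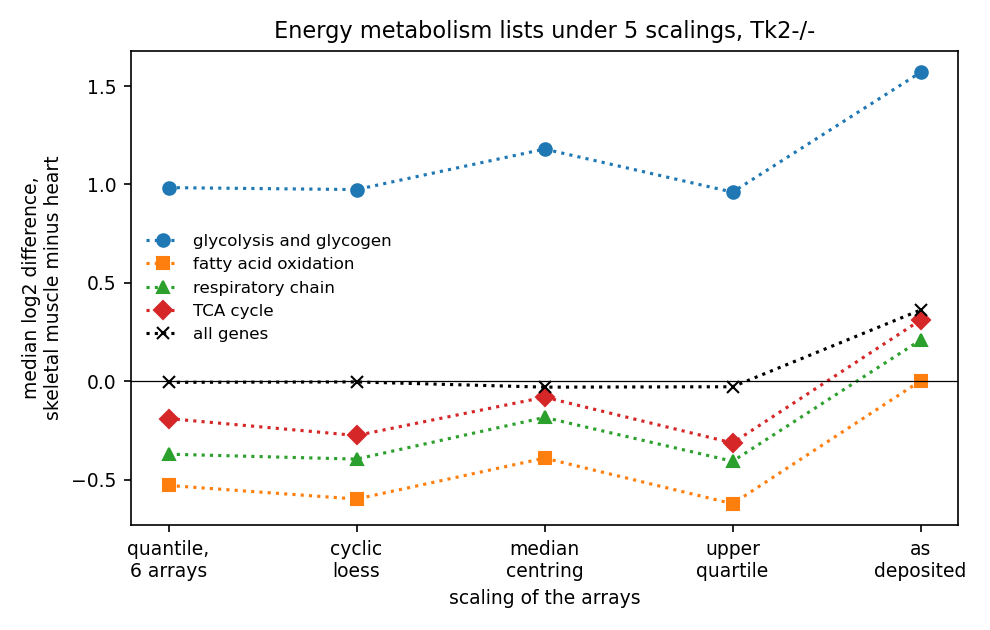
Median log2 difference, skeletal muscle minus heart, of 4 lists of energy metabolism and of all genes in Tk2-/- mice under 5 scalings of the arrays, 1 marker per list and scaling. Glycolysis lies above the other lists under each scaling. The fatty acid oxidation, respiratory chain and TCA medians are below 0 except for values as deposited. There the fatty acid median is 0.0019 and the median of all genes is 0.362.

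Genes that maintain mitochondrial DNA and its nucleotides were split, with 11 of 38 higher and 10 lower in skeletal muscle (median -0.0046), but 27 were higher and 3 lower without normalization (median 0.546), and 17 and 9 by median centring. The coactivators of mitochondrial biogenesis were lower: *Ppargc1a* gave 416, 436 and 398 against 1867, 1720 and 1860 (-2.08 ± 0.08) and *Ppargc1b* gave 76.2, 56.9 and 69.1 against 170, 204 and 172 (-1.25 ± 0.11). Deoxyguanosine kinase (*Dguok*), the other mitochondrial salvage kinase, gave 349, 271 and 308 against 513, 505 and 461 (-0.65 ± 0.10). The p53-induced ribonucleotide reductase subunit *Rrm2b* was lower by 0.47, while the S-phase subunit *Rrm2* gave 110, 196 and 126 against 53.7, 38.2 and 41.6 (1.37 ± 0.18). *Tfam*, which packages mitochondrial DNA, was higher by 0.55, and the polymerase gene *Polg* did not pass (-0.10).

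The mitochondrial and amino acid stress response had 11 higher and 2 lower genes of 20 (median 0.30). *Chac1*, which degrades glutathione, gave 887, 877 and 1086 against 123, 88.1 and 104 (2.999 ± 0.12). *Cth*, of cysteine synthesis, gave 189, 215 and 225 against 38.8, 25.3 and 40.9 (2.16 ± 0.13). The regulators *Atf3* (1.49) and *Atf4* (0.80) and asparagine synthetase (*Asns*, 1.42) were higher too. *Fgf21*, a hormone raised in mitochondrial myopathy, was at 46.7, 45.8 and 40.0 against 49.0, 40.4 and 53.8 and did not pass (-0.08, adjusted p = 0.582).

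Targets of glucocorticoids and FoxO, which drive muscle wasting, were higher in 16 of 28 and lower in 3 (median 0.50). The ubiquitin ligases of atrophy gave 3104, 3972 and 3419 against 1072, 858 and 1074 for *Fbxo32* (1.79 ± 0.12) and 2880, 4357 and 3444 against 1513, 1307 and 1438 for *Trim63* (1.30 ± 0.14). *Cebpd* gave 369, 583 and 433 against 116, 89.0 and 122 (1.92 ± 0.16), *Foxo1* was higher by 1.018 and the cell cycle inhibitor *Cdkn1a* by 0.98. The receptor targets *Fkbp5*, *Tsc22d3* and *Sgk1* did not pass, with differences from -0.22 to 0.30. Of 41 cell cycle genes, 7 were higher (17.1%) and 6 lower (14.6%), near the 18.1% and 17.6% of all genes (median 0.14). Without normalization the counts were 29 and 3. Differences on this list ranged from -2.59 for *Cenpa*, a centromere histone, to 1.16. The D-type cyclins *Ccnd1* (-1.11) and *Ccnd2* (-1.27) were also lower.

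**Figure D4:**
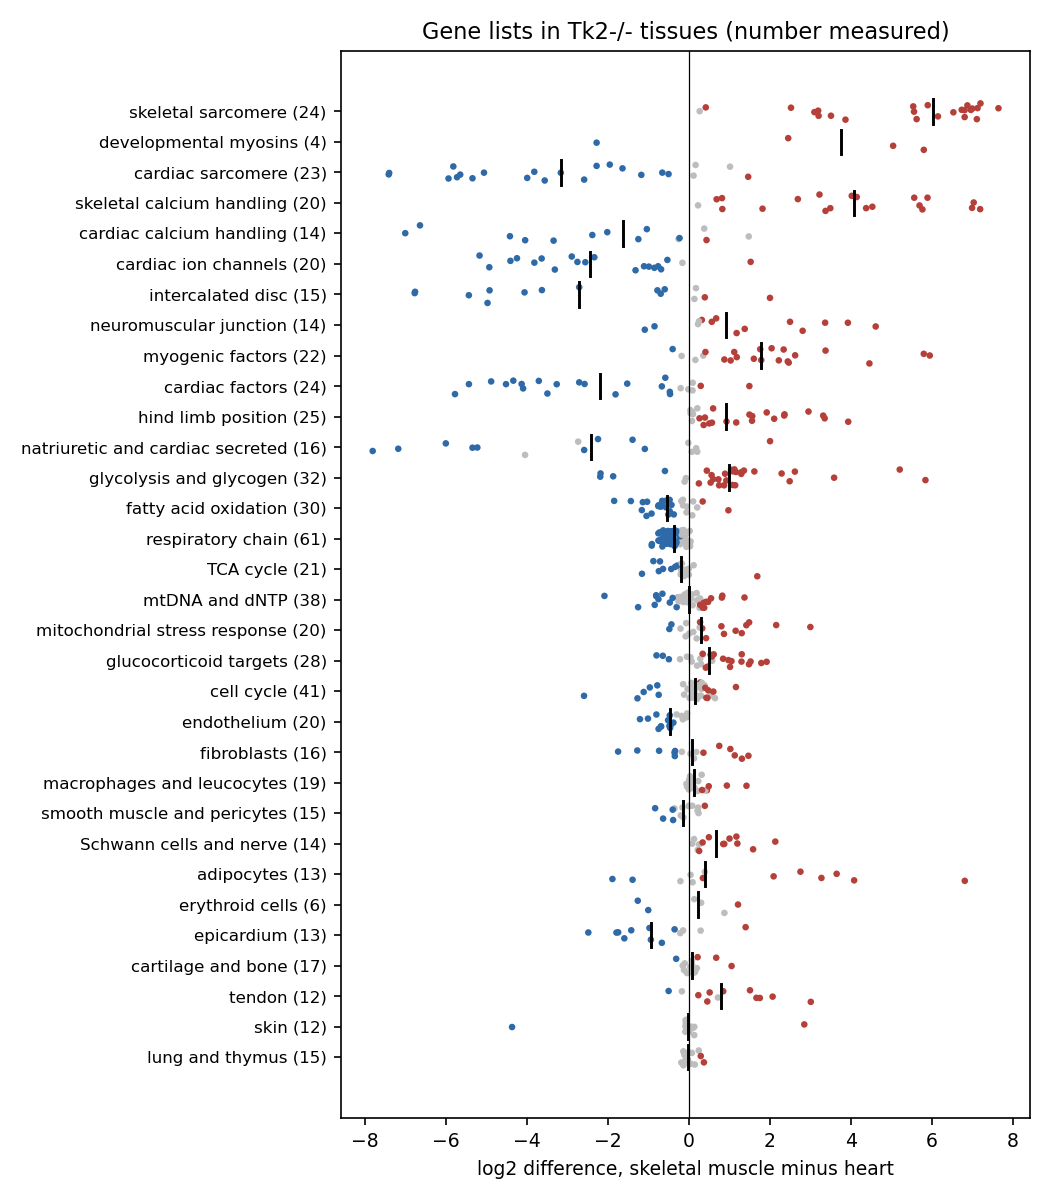
Log2 difference, skeletal muscle minus heart, of each measured gene of 32 lists in Tk2-/- mice, 1 point per gene, red where higher and blue where lower in skeletal muscle, grey where not past the threshold, with the list median as a black bar and the number measured in brackets. Sarcomere and calcium lists reach beyond 6 on either side, whereas the 61 respiratory chain genes lie between -0.92 and 0.04.

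Markers of cells other than muscle differed in some lists, to be read against the 35.8% of all genes that differed. The macrophage, smooth muscle, cartilage and bone, skin, and lung and thymus lists were below that share after quantile normalization. Without normalization, 11612 of all genes were higher and 875 lower. Endothelial markers were lower in skeletal muscle in 13 of 20 (median -0.46), with summed signals of 7221 to 7563 against 9834 to 11061 in heart, but without normalization 5 were higher and 3 lower. Epicardial markers were lower in 9 of 13, with *Tcf21* at 9.63, 10.6 and 5.02 against 120, 123 and 115 (-2.48 ± 0.10). *Krt18*, which is shared with other epithelia, was the exception at 1.401, with 374, 153 and 95.3 against 64.6, 40.8 and 71.2. Without normalization 2 epicardial markers were higher and 5 lower. Schwann cell and nerve markers were higher in 10 of 14 and lower in none, with summed signals of 2948 to 4271 against 1269 to 1439, and the myelin gene *Mag* was at 24.1, 33.5 and 40.4 against 6.12, 5.95 and 4.07 (1.17 ± 0.12). Tendon markers were higher in 9 of 12, led by *Thbs4* (3.01). Fat cell markers were higher in 7 of 13 and lower in 2: *Retn* gave 275, 511 and 472 against 9.69, 8.86 and 8.29 (4.08 ± 0.19) and *Adipoq* gave 160, 341 and 364 against 14.6, 9.03 and 18.4 (3.27 ± 0.26), while *Cidea*, which mouse heart also makes, was lower by 1.88. *Car3* (6.81) is on this list but is also made by muscle fibres. Fibroblast genes were split 6 and 6 of 16, against 10 higher and 2 lower without normalization and 7 and 3 by median centring, with type I collagen (*Col1a1*, 1.47) higher and fibulin 1 (*Fbln1*, -1.74) lower. Macrophage and leucocyte markers were higher in 5 of 19 and lower in none, with *Cd68* at 163, 201 and 232 against 62.1, 59.0 and 69.1 (1.42 ± 0.12). Without normalization 18 of them were higher and none lower. Smooth muscle markers were higher in 1 and lower in 4 of 15, against 10 and 0 without normalization and 4 and 3 by median centring. Cartilage and bone markers were higher in 3 and lower in 1 of 17, skin markers higher in 1 and lower in 1 of 12, lung and thymus markers higher in 2 of 15, and erythroid markers higher in 1 and lower in 2 of 6. Without normalization, higher and lower counts were 13 and 0 for cartilage and bone and 8 and 1 for skin. They were 6 and 0 for lung and thymus and 4 and 2 for erythroid markers. The part these cells have in the lists above was not tested.

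The last comparison asked where the tissue difference in the knockout departed from that in the wild-type, with all 12 arrays normalized and fitted together. Wild-type tissues share no array with knockout tissues. The difference between the genotypes passed for 1110 genes that were more positive in the knockout (5.90%), meaning further towards skeletal muscle, and for 832 that were more negative (4.42%). This balance depended on the scaling, with 7781 and 261 as deposited, 6130 and 804 by median centring and 1144 and 2831 by upper-quartile scaling, and the first count fell to 639 without knockout heart replicate 1. Wild-type heart replicate 1 was low in atrial genes, with *Myl7* at 15.7, 533 and 2302 and *Bmp10* at 7.62, 1591 and 4231 in wild-type hearts 1 to 3, and without it 886 genes were more positive and 673 more negative. Wild-type skeletal muscle had 3628 higher and 4126 lower genes than wild-type heart, against 3593 and 3542 for the knockout in the same fit. Of the knockout calls, 66.41% were also wild-type calls in the same direction, which were 61.1% of the wild-type calls. A further 91 genes were higher in the knockout but lower in the wild-type, and 50 the reverse.

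List counts in this and the following paragraphs are to be read against all genes, of which 5.90% were more positive and 4.42% more negative after quantile normalization. Of the 24 skeletal sarcomere genes, 3 had a more positive and 1 a more negative tissue difference in the knockout, against 11 and 1 by median centring and 13 and 1 as deposited. Of the 23 cardiac sarcomere genes, 3 were more positive and 5 more negative, a balance that turned to 10 and 3 by median centring and to 11 and 3 as deposited. Skeletal α-actin (*Acta1*) gave 1235, 1126 and 1310 in wild-type heart and 152, 154 and 132 in knockout heart, so that its tissue difference was 5.45 in the knockout and 2.58 in the wild-type (adjusted p = 4.75e-08 for the difference of 2.88). *Casq1*, the skeletal calcium store protein, was similar, at 5.71 and 3.56. *Actc1* moved in skeletal muscle, with 7511 ± 480 (SD, n = 3) in wild-type and a tissue difference of -1.86 in the knockout against -0.21 in the wild-type (adjusted p = 6.16e-06). *Myh7* gave 64.3, 36.6 and 56.3 in wild-type heart and 999, 335 and 2049 in knockout heart, so that its difference was 1.01 against 3.95 (adjusted p = 0.0247). Intercalated disc genes were more negative in 5 of 15 and more positive in none, among them *Lrrc10* (-6.87 against -5.79), *Pkp2* (-5.55 against -4.61) and *Ctnna3*, though by values as deposited 8 were more positive and 4 more negative, and by median centring 8 and 5.

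Of 22 myogenic genes, 8 had a more negative tissue difference in the knockout and none a more positive one. The counts were 8 and 4 as deposited, 10 and 3 by median centring and 11 and 0 by upper-quartile scaling. *Mymk* had 681 ± 96.7 in wild-type skeletal muscle and a difference of 1.91 in the knockout against 4.28 in the wild-type (adjusted p = 0.000248). *Myog* was at 1.70 against 3.46 and *Myod1* at 2.60 against 3.93, while *Myf6* (6.07 against 5.59) and *Tbx15* (5.92 against 5.65) did not pass. At the neuromuscular junction, 5 of 14 genes were more negative and 2 more positive, against 3 and 3 as deposited, 9 and 2 by upper-quartile scaling and 8 and 2 by normalization within each genotype. Acetylcholinesterase (*Ache*) was at 2.61 in the knockout against 3.49 in the wild-type, and *Musk* at 4.06 against 3.03.

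Glucocorticoid and FoxO targets leaned towards heart in the wild-type and towards skeletal muscle in the knockout. Of 28 targets, wild-type skeletal muscle had 1 higher and 10 lower, against 16 and 3 in the knockout, and the difference passed for 13 that were more positive and 1 that was more negative. *Fbxo32* had 253 ± 60.0 in wild-type skeletal muscle and 492 ± 30.3 in wild-type heart, so that its tissue difference was -0.94 there and 1.74 in the knockout (adjusted p = 1.69e-05). In the knockout against the wild-type, *Cebpd* was at 1.92 against 0.15, *Trim63* at 1.25 against -0.41 and *Lcn2* at 1.49 against -0.42. The positive count was 25 both by median centring and by values as deposited and 15 by upper-quartile scaling. The macrophage list showed 10 more positive and 1 more negative of 19, with *Cd68* at 1.46 in the knockout against -0.07 and *Adgre1* at 0.26 against -0.75. Fatty acid oxidation genes were more positive in 12 of 30 and more negative in 1, with *Cd36* at -0.45 in the knockout against -1.07. For the respiratory chain no gene of 61 passed, but all 12 arrays as deposited gave 59 more positive and median centring 40.

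**Figure D5:**
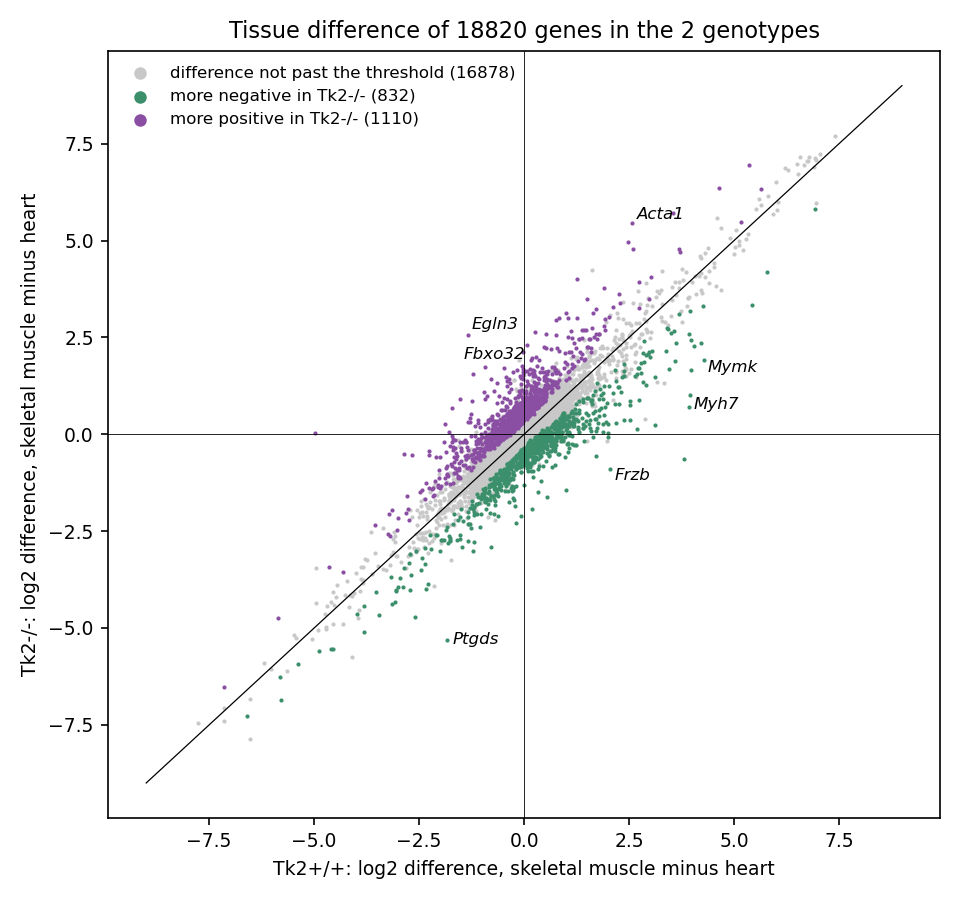
Log2 difference, skeletal muscle minus heart, of 18820 genes in Tk2-/- mice (vertical axis) against Tk2+/+ mice (horizontal axis), 1 point per gene, with the line of equal difference. The 1110 genes more positive in the knockout are purple and the 832 more negative ones green, and most genes with a difference beyond 5 lie near the line.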

How the data were processed

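RNA of 4 groups, 3 samples each, was read on Affymetrix Mouse Gene 1.1 ST arrays. The authors deposited 1 linear intensity per probe set and array. PLIER and Affymetrix Expression Console stand in the submitters' processing notes, with no version, and the methods state that data were normalized without naming the procedure. Columns of per-sample values not used numbered 0. Symbols came from the platform annotation: 21218 probe sets had 1 symbol, 1881 several and 12457 none, and 21185 of the first matched RefSeq genes of GRCm38.p6 (0 symbols changed). For 1386 genes with several probe sets, the brightest over the 12 arrays was used.

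An offset of 16 was added, the log2 taken and the 6 arrays quantile normalized. Tissues were compared by limma's moderated test (version 3.58.1, run in R 4.3.3; 2-sided, residual degrees of freedom 4), and the genotypes by an interaction term over 12 arrays (8 degrees of freedom). Replicate numbers were not used to pair arrays, because the labels do not say whether equal numbers are the same animal. Deviations of equally numbered arrays correlated at -0.092, -0.148 and -0.137, which cannot settle this. By the sex markers, knockout skeletal muscle replicate 2 and knockout heart replicate 2 came from different mice. Each fit, with that of the methods' t-test, was tested on simulated data with known changes. These data were simulated after normalization with few changed genes, so they say nothing of the choice of scaling. Figures used Python 3.11.15 and matplotlib 3.10.9.

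Members and lists were chosen with earlier results of these data known. Genes were named by a rule: *Tk2*, the paired forms, the 15 largest differences each way without overlap between the tissues, up to 8 members of each list, members against a list's role, the 8 largest genotype differences each way and the sex genes. Members that did not pass, chamber genes, microRNAs and imprinted genes lie outside it. Alternatives were values as deposited, median centring, cyclic loess, normalization over 12 arrays or, for the genotypes, within each genotype or tissue, offsets of 1 and 64, leaving out dim genes (mean below 64), the mean of probe sets, every probe set tested, the brightest probe set on the 6 arrays, trend and robust priors, array weights, a replicate block, the 4 groups fitted together, the methods' t-test, leaving out each array, and upper-quartile scaling, which was chosen after seeing the data.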

Additional observations from a re-analysis of the deposited data

Results flagged for a closer look

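The tissue difference departed between the genotypes most strongly for 16 genes, by the interaction term, with knockout minus wild-type values on the log2 scale. Those more positive in the knockout were *2210407C18Rik* (5.02), *Egln3* (3.91), *Acta1* (2.88), *Atf3* (2.79), *Slc43a1* (2.74), *Fbxo32* (2.68), *Fhl3* (2.48) and *Slc4a1* (2.45). In *2210407C18Rik* the change lay in heart, with 1316.5, 780 and 540 in wild-type heart and 8.32, 7.80 and 10.95 in knockout heart, while skeletal muscle read 7.21 to 11.93 on all 6 arrays. *Egln3*, an oxygen-sensing prolyl hydroxylase, crossed over: it was lower in skeletal muscle in the wild-type (-1.34) and higher in the knockout (2.56). *Atf3* crossed over as well, at -1.22 and 1.57. *Fhl3*, a LIM protein of muscle, was higher in skeletal muscle in both genotypes, at 2.48 and 4.96. *Slc4a1*, the red cell anion exchanger, read 126, 230 and 284 in wild-type heart and 38.4, 32.7 and 38.7 in knockout heart, and its muscle arrays were unequal (29.5, 224 and 74.4 in the knockout).

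Those more negative were *Mir323* (-4.45), *Ptgds* (-3.48), *A930003A15Rik* (-3.23), *Myh7* (-2.94), *Frzb* (-2.94), *Pdzd7* (-2.87), *Gpr50* (-2.57) and *Tmtc1* (-2.42). *Mir323* read 1155, 263 and 662 in wild-type skeletal muscle and 23.3, 29.6 and 29.7 in knockout skeletal muscle. *Ptgds*, a prostaglandin synthase, read 166, 101 and 151 in wild-type heart and 1628, 1363 and 2109 in knockout heart. *Frzb*, a Wnt antagonist, was higher in skeletal muscle in the wild-type (2.05) and lower in the knockout (-0.89), and *Tmtc1* turned from 0.996 to -1.43. *Gpr50*, at 146, 85.7 and 84.7 in wild-type skeletal muscle, was at or below 6.57 on every knockout array.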

How the results depend on the processing

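By values as deposited, there were 11612 higher and 875 lower genes in skeletal muscle, the genotype difference passed for 7781 more positive and 261 more negative genes, 63.7% of the calls kept their direction and side of the threshold, and 422 calls turned. Signs were checked only for genes named by the rule that passed the threshold with or without normalization. Among these, signs turned then for *Tk2* (0.40), *Jph2* (0.43), *Pgam1* (0.043), *Cox7a1* (0.032), *Cox7a2* (0.000502), *Itga7* (0.29), *Ndufs6* (0.036), *Pdhb* (0.043), *Fh1* (0.20), *Suclg1* (0.37), *Emcn* (0.0085), *Egfl7* (0.18), *Ushbp1* (0.051), *Pdgfrb* (0.31), *Cnn1* (0.049) and *Sp7* (0.078). The median difference of 3648 bright genes was 0.661 as deposited. For the genotype difference, median centring gave 6130 more positive genes, upper-quartile scaling 2831 more negative ones, and array weights 1836 and 1477. The methods' t-test at an unadjusted p and 2-fold gave 700 higher and 678 lower and kept 20.5% of the calls, and 71.1% were kept after Benjamini-Hochberg adjustment. Leaving out an array gave 2742 to 3395 higher and 2660 to 3335 lower genes, and 639 to 1427 more positive and 505 to 1049 more negative. The count of more positive genes was 710 without knockout skeletal muscle replicate 2, 723 without replicate 3, 639 without knockout heart replicate 1 (505 more negative) and 711 without replicate 3. The cause was not tested. A replicate block gave 2943 higher and 2884 lower genes, and 801 and 604 for the genotype difference. The labels do not say whether equal replicate numbers are the same animal, and the knockout skeletal muscle array read as male came from none of the knockout heart donors. Of 1386 genes with several probe sets, 9 had opposite calls and none of these was named by the rule. The number of arrays limits the precision, and dim genes near the offset have understated differences.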
